A study of Brassica rapa subsp. pekinensis with 8 samples.

Results

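The comparison described here sets line 4004 against line 50 of Chinese cabbage (Brassica rapa subsp. pekinensis) before any cold treatment, across all genes of the deposited table. Its members are the 4 libraries taken at day 0, of 8 in the series: 1 library of line 4004 and 3 of line 50, selected by line and time point in the labels. Line 50 is a late-bolting and line 4004 an early-bolting inbred line, and bolting is the elongation of the flowering stem. All 4 libraries came from young seedlings grown warm in long days, with no cold, no agent and no introduced gene in either line. The labels name the tissue as leaf at vegetative growth, whereas the methods of the study name shoots, and each sample pooled several plants. The 4 libraries of day 35, taken after 35 days of cold with shorter days, entered the same fit and are used below as separate samples of the same 2 lines. In this series the line 4004 library had no replicate at either day, so each test assumed that it varies like a line 50 library. The study also used duplicate line 4004 data from its earlier work, which are not analysed here.

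Plants read touch, wounding, light, sugar and nitrate through fast regulatory circuits, in which calcium sensors and transcription factors of the WRKY, ERF and zinc-finger families are switched on for a short time. Nitrate itself controls the genes for its uptake and reduction. Flowering after cold depends on FLC, a MADS-box repressor that prolonged cold silences, and on integrators such as SOC1 and FT that act downstream of it. Gene names and roles are those of the Arabidopsis thaliana gene to which the deposited annotation assigns each Brassica gene. Most Arabidopsis genes have several copies in Brassica rapa, which are named below by their Bra identifiers.

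The day 0 libraries held total counts of 18.3 M to 25.1 M. Replicate 3 of line 50 stood apart. Replicates 1 and 2 of line 50 had a Spearman correlation of 0.988 across genes, each correlated with replicate 3 at only 0.923 and 0.921, and the line 4004 library correlated with replicates 1, 2 and 3 at 0.886, 0.893 and 0.930. The line 4004 library also carries the number 3 in its label. Results are therefore given against each line 50 library as well as against all 3. Leaf genes were read far above root markers in every library. Light-harvesting and Rubisco small-subunit genes took 135145, 117968 and 275831 TMM-scaled CPM in replicates 1, 2 and 3 of line 50. They took 99247 CPM in line 4004, and the list of root markers took 1.2 to 2.6 CPM. These units divide counts by the library total times its TMM factor, so the sum over all genes differs between libraries. That sum was 935454, 914913 and 1310616 CPM in replicates 1, 2 and 3 of line 50 and 881057 CPM in line 4004. The 9 tested reference genes had a median log2 fold change of -0.63, and edgeR called 0 of them, with 0 at an unadjusted p under 0.05 and 0 called by DESeq2.

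At day 0, 375 genes were higher and 91 lower in line 4004. A gene was called at an edgeR adjusted p under 0.05 and a difference of at least 2-fold, and 31191 genes were tested, so the calls are 1.20% of them in the higher and 0.292% in the lower direction, or 1.49% together. The differences were large: the median log2 fold change was 3.82 among the genes called higher and -4.23 among those called lower, or 3.68 and -4.15 when genes with no reads in one line are set at their lower bound. All 466 called genes lay outside the range of the 3 line 50 libraries by at least 2-fold against each. Of all genes tested, 6.51% lay as far above and 5.08% as far below. Against replicate 3 alone the medians were 3.52 and -4.19. At the expression threshold of the study, a mean normalised read count of at least 500, 47 of the genes called higher and 29 of those called lower remained.

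The number of calls depended strongly on how the spread within line 50 was modelled. With the replicate number as a block, 1455 genes were higher (4.66%) and 908 lower (2.91%), and these included 355 of the 375 and all 91 of the 91. Without replicate 3 of line 50 at both days the fit called 4479 higher and 4233 lower, and all 466 genes were among them. Without replicate 1 or without replicate 2 of line 50 at day 0 it called only 21 higher and 2 lower. The block fit assumes that number 3 means the same in both lines, which the labels do not state. The values of single libraries below do not depend on how the spread was modelled.

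Some of the largest differences were between reads in one line and none in the other. Of the genes called higher, 50 had no reads in any line 50 library, and of the genes called lower, 16 had none in line 4004. No deposited raw count was below 1, so a raw count of 1 is read here as no reads. After scaling it becomes a normalised read count of 1 or 2, which a few reads can also give. NIP2;1, an aquaporin of the NOD26-like group, had 2 neighbouring identifiers of this kind. Bra005428 had normalised read counts of 1, 1 and 2 in line 50 and 2427 in line 4004 (95% exact Poisson interval 2332 to 2525), at least 694-fold higher (edgeR adjusted p = 0.00038). Bra005430 had 1, 1 and 2 against 2331, at least 666.5-fold higher. Both values of line 4004 lay more than 2 orders of magnitude above each line 50 library, and reads of such near-identical copies may have been shared between them.

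An acid phosphatase of the HAD superfamily showed nearly the same contrast. Bra010332 had 4, 6 and 7 in line 50 and 6584 in line 4004 (10.04 ± 0.65 SE on the log2 scale, adjusted p = 0.0030 by edgeR), and its second copy Bra011091 had 4, 2 and 6 against 822 (7.54 ± 0.48). PUP1, a purine permease chosen after its values were seen (Bra010890), had 12, 13 and 15 against 515 (5.17 ± 0.44). A pair of UDP-glycosyltransferases of one Arabidopsis locus, Bra005229 and Bra005227, had 18, 65 and 36 against 2830 and 19, 77 and 27 against 2052. In none of these genes did the line 4004 value come near the line 50 range.

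In the opposite direction, genes read well in line 50 had few or no reads in line 4004. Bra027096, of the fatty acid desaturase family, had 2082, 2215 and 3064 in line 50 and no reads in line 4004, at least 826-fold lower (edgeR adjusted p = 0.0049). Its other copies fell with it: Bra001610 had 490, 488 and 516 against 2, Bra001612 had 452, 446 and 493 against 3, and Bra001611 had 164, 168 and 116 against none. These 4 were all of the called members among 46 tested fatty acid desaturases (8.7% lower, against 0.292% of all genes). The family introduces double bonds into lipids. FLA9, a fasciclin-like arabinogalactan protein of the cell surface (Bra027531), had 1070, 924 and 847 against none, at least 319-fold lower, although its spread in the fit was wide (adjusted p = 0.049). A gene annotated only as a nucleic acid-binding OB-fold protein, Bra019400, had 1207, 1050 and 1570 against none, while another assigned to the same locus, Bra022234, had no reads in line 50 and 395 in line 4004. The 2 genes thus differed in opposite directions, but they belong to a large group and are not a pair. Of 81 tested genes annotated as OB-fold proteins, 5 were called higher and 1 lower. Bra001498, assigned to the same locus, had 154, 124 and 159 against 156.

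Regulators of the early touch and wound response had the most calls of any list or family. Of 73 tested genes on this list, 27 were higher and 0 lower (36.99% against 1.20% of all genes), and the median log2 fold change of all 73 was 3.16 against -0.04 over all genes tested. The list was drawn up with earlier results of these data known, so these values are descriptions and not independent evidence. Line 4004 lay above all 3 line 50 libraries in 72 of the 73, compared with 33.0% of all genes. The median was 4.0, 3.06 and 3.24 against replicates 1, 2 and 3, so it was as large against the library that stood apart. With the replicate block 51 members were higher and 0 lower, and without replicate 3 of line 50, 69 were higher. The summed level of the list was 293 to 529 CPM in line 50 and 3566 CPM in line 4004.

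**Figure D1:**
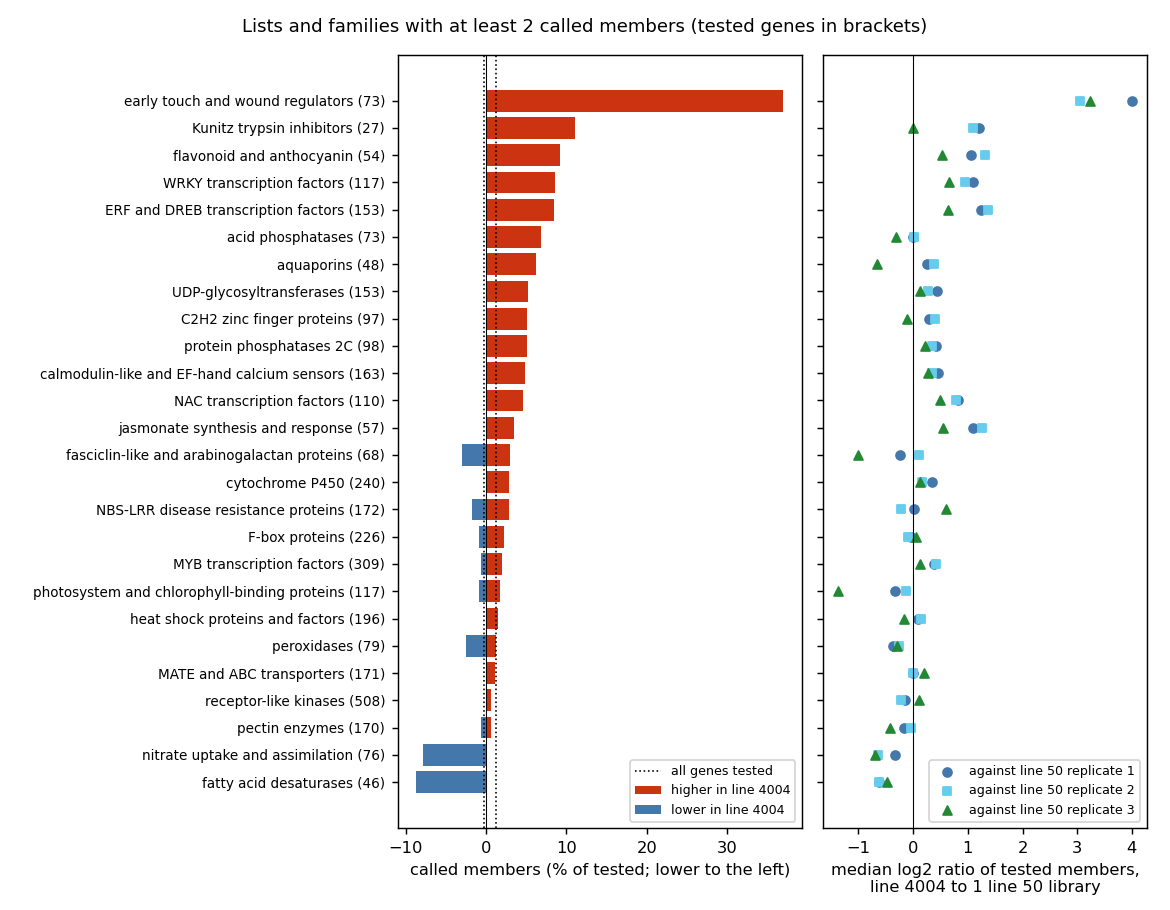
Lists and families with at least 2 called members. Left, bars give the percentage of tested members called higher (right of 0) or lower (left of 0) in line 4004 at day 0, dotted lines give the same over all genes tested, and brackets give the number tested. Right, symbols give the median log2 ratio of the tested members in line 4004 to each single line 50 library. The early touch and wound regulators reach 36.99% higher, with medians of 4.0, 3.06 and 3.24.

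The transcription factors of this list spanned several families. ERF11, a repressor in the ethylene pathway (Bra010880), had normalised read counts of 17, 61 and 98 in line 50 and 3351 in line 4004 (log2 fold change 5.76 ± 0.87 SE, edgeR adjusted p = 0.032). STZ, a C2H2 zinc-finger repressor of stress responses, had 14, 92 and 40 against 2416 in Bra010922 and 16, 76 and 33 against 1229 in Bra032845. SZF1, a CCCH zinc-finger protein chosen after its values were seen (Bra007205), had 308, 1117 and 463 against 10737 (4.05 ± 0.60, adjusted p = 0.030). In each of them replicate 1 of line 50 was the lowest library, and even the highest line 50 library was far below line 4004.

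The WRKY factors, regulators of defence and wound responses, had a family median of 0.76. Of 117 tested members, 10 were called higher (8.55% against 1.20% of all genes) and 0 lower. All 3 copies of WRKY33, a defence activator, were among them, with 199, 381 and 403 against 3175 in Bra000064, 70, 146 and 190 against 1684 in Bra017117, and 75, 164 and 232 against 2112 in Bra005104. All 3 copies of WRKY40, which acts in abscisic acid and defence signalling, were too, with line 50 levels of 6 to 47 and line 4004 levels of 408, 537 and 611. Both copies of WRKY53, linked to leaf senescence and defence and chosen after their values were seen, had 15 to 108 in line 50 and 389 and 1145 in line 4004. The copies of one locus thus moved by similar amounts.

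The ERF and DREB family had 13 of 153 tested members higher (8.5% against 1.20% of all genes) and 0 lower. Its median was 0.81. ERF6 (Bra040158) had 39, 73 and 61 against 1271, ERF5 (Bra024953) had 7, 24 and 23 against 346, and ERF104 (Bra029319) had 72, 235 and 102 against 1979. These ethylene-response factors act in fast responses to stress and pathogens, and ERF5 and ERF104 were chosen after their values were seen. RRTF1, a redox-responsive factor of the same family, was almost absent from line 50, with values of 1 to 5, and had 45, 101 and 95 in line 4004 in Bra017656, Bra011529 and Bra034624. RHL41, a zinc-finger factor of high-light and cold acclimation, had 3 called copies, and the 2 with identical counts, Bra006691 and Bra006692, gave 19, 90 and 36 against 1179 each. Reads of that identical pair cannot be assigned to either copy.

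Of 163 tested calmodulin-like and EF-hand calcium sensors, 8 were higher (4.91% against 1.20% of all genes) and 0 lower. Their median was 0.26, and 155 were not called. CML37 (Bra027981) had 3, 4 and 6 against 207, and CML38 (Bra003712) had 3, 11 and 2 against 234. Except for CML37, the genes of this paragraph were chosen after their values were seen. CML24, a touch-induced calcium sensor known as TCH2 (Bra025439), had 147, 267 and 325 against 4147 but missed the threshold (edgeR adjusted p = 0.055, and 0.021 with the replicate block). The deadenylase CAF1, which shortens the poly(A) tails of messenger RNAs, was called in 2 of 3 tested copies. These had 73 to 240 in line 50 and 2715 and 2903 in line 4004 (Bra002400 and Bra020179). The other copy, Bra006616, was not called (log2 fold change 3.39). ACS6, an enzyme of ethylene synthesis (Bra035236), had 694, 1174 and 1180 against 6623 (2.64 ± 0.39, adjusted p = 0.029).

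**Figure D2:**
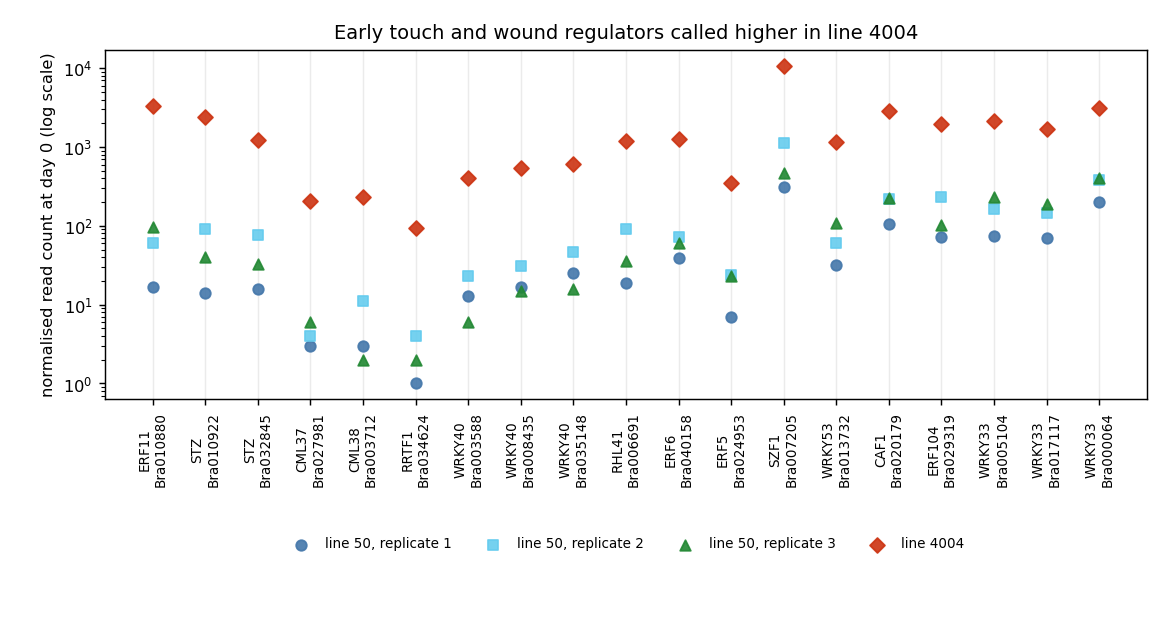
Normalised read counts at day 0 (log scale) of 19 genes of the early touch and wound list called higher, with 1 symbol for each line 50 library and a diamond for the line 4004 library. In every gene the line 4004 value lies above all 3 line 50 values, from 3351 against 98 or less for ERF11 to 3175 against 403 or less for WRKY33 (Bra000064).

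CYP707A enzymes break down abscisic acid, the hormone of drought stress and dormancy, and 4 of their copies were called, each tested copy of CYP707A1 and 2 of 3 of CYP707A3. The CYP707A3 genes and HAI1 below were chosen after their values were seen. CYP707A3 had 36, 53 and 6 in line 50 and 1499 in line 4004 in Bra027602 (5.48 ± 0.90 SE on the log2 scale, adjusted p = 0.039 by edgeR), and 30, 52 and 7 against 1286 in Bra021965. CYP707A1 had 63, 78 and 48 against 868 in Bra012551 (3.73 ± 0.33, adjusted p = 0.0077) and 33, 40 and 19 against 436 in Bra013386. Replicate 3 of line 50 was the lowest library for all 4 genes. HAI1, a protein phosphatase that restrains abscisic acid signalling (Bra002594), had 4, 3 and 4 against 115. Of the 98 tested genes annotated as type 2C phosphatases, 5 were higher (5.1% against 1.20% of all genes). NAC019, a transcription factor of the drought and jasmonate responses (Bra018998), had 23, 9 and 18 against 1440 (6.38 ± 0.74, edgeR adjusted p = 0.015). Of 110 tested NAC factors, 5 were higher (4.55%) and 0 lower.

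Anthocyanin and jasmonate genes contributed fewer calls. Of 54 tested flavonoid and anthocyanin genes 5 were higher (9.26% against 1.20% of all genes) and 0 lower, with a median of 0.80. DFR, which makes leucoanthocyanidins (Bra027457), had 6, 6 and 3 against 333 (5.81 ± 0.71, edgeR adjusted p = 0.017), and a pair of flavonoid glycosyltransferases, Bra003021 and Bra035004, had 1, 2 and 2 against 152 and 151. The glycosyltransferase pair had nearly the same counts in every library, so reads may have been shared between them and their calls may not be separate. TT8, the bHLH regulator of the late pathway (Bra037887), had 1, 2 and 2 against 19. Chalcone synthase, the entry enzyme, which was also chosen after its values were seen, had 215, 225 and 842 against 2426 in Bra008792 (2.40 ± 0.94), where replicate 3 of line 50 lay between the other line 50 libraries and line 4004; it was not called (adjusted p = 0.33, and 0.039 with the replicate block). Of 57 tested jasmonate genes 2 were higher (3.51% against 1.20% of all genes). They were the storage protein gene VSP2 (Bra020470, with 192, 407 and 397 against 2448) and a lipoxygenase (Bra008037, with 17, 20 and 60 against 874). The median of the jasmonate list was 1.10 and 1.26 against replicates 1 and 2 but 0.55 against replicate 3.

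Several genes of sugar metabolism and light protection, of which APL3 and GPT2 belong to no list and were chosen after their values were seen, were called higher. APL3, a large subunit of the enzyme that commits glucose to starch (Bra033604), had 536, 527 and 913 in line 50 and 9234 in line 4004 (3.73 ± 0.61, edgeR adjusted p = 0.040). GPT2, which carries glucose 6-phosphate into plastids (Bra031772), had 24, 31 and 49 against 644 (4.16 ± 0.50, adjusted p = 0.017). The early light-induced proteins ELIP (Bra001886; 12, 12 and 35 against 822) and ELIP2 (Bra036883; 17, 16 and 26 against 245) protect chloroplasts in strong light. They were the 2 members called higher of 117 tested photosystem and chlorophyll-binding proteins (1.71% against 1.20% of all genes). That family as a whole lay lower in line 4004, by a median of -0.33 and -0.13 against replicates 1 and 2 and -1.37 against replicate 3, so its level turned on that library.

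Nitrate uptake and assimilation had the most genes called lower of any list. Of 76 tested genes of nitrate uptake and assimilation, 6 were lower and 0 higher (7.89% against 0.292% of all genes), and 17 were lower and 2 higher with the replicate block. This list was also drawn up with earlier results of these data known, so its share is a description. The list median was -0.50. NIA1, nitrate reductase, had 7727, 6171 and 6980 in line 50 and 499 in line 4004 in its most abundant copy Bra015656 (log2 fold change -3.86 ± 0.47 SE, edgeR adjusted p = 0.017). Bra008333 had 2557, 2073 and 2391 against 159 (-3.93 ± 0.41, adjusted p = 0.011), and Bra003670 had 2720, 2202 and 2535 against 188 (-3.78 ± 0.43, adjusted p = 0.014). The 3 line 50 libraries lay close together for all 3 copies, replicate 3 included.

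NIR1, nitrite reductase, which takes the next step, pointed the same way with a wider spread. Bra015227 had 3204, 2562 and 2129 against 458 (-2.57 ± 0.54; edgeR adjusted p = 0.085, and 0.034 with the replicate block), and Bra039844 had 5852, 4379 and 2986 against 634 (-2.83 ± 0.73; adjusted p = 0.14, and 0.055 with the block). A further 3 nitrate-responsive repressors were called lower as well, and they and NRT2.1 were chosen for naming after their values were seen. They were 2 HHO-type genes of the GARP group, Bra012471 with 40, 53 and 32 against 2 and Bra038360 with 421, 402 and 395 against 49, and LBD37 (Bra031833) with 667, 574 and 354 against 77. In Arabidopsis these factors repress nitrate uptake or nitrogen-responsive genes once nitrate is present. NRT2.1, a high-affinity nitrate transporter, was low in both lines, at 64, 63 and 24 against 3 in Bra018655, and did not pass the test (adjusted p = 0.091, and 0.065 with the block).

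Further transport and wall genes were called lower. SLAH2, a nitrate-conducting anion channel (Bra040840), had 77, 100 and 101 against 2 in this one copy of 3. Its other copies, far more abundant, lay the opposite way without being called, with 2073, 1905 and 3529 against 5339 in Bra026294 (log2 fold change 1.02) and 1194, 1091 and 2390 against 3484 in Bra010388 (1.08). The HPP-family membrane proteins, whose Arabidopsis relative carries nitrite into plastids, had 917, 809 and 781 against 88 in Bra035883 and 901, 924 and 865 against 65 in Bra010116. The tonoplast dicarboxylate transporter, which loads malate into the vacuole, was called in 2 of 3 tested copies: Bra024934 had 1845, 1263 and 1046 against 165 and Bra022142 had 506, 346 and 263 against 56, while Bra017477 with 527, 362 and 232 against 79 was not called (adjusted p = 0.17). EXT3, an extensin that cross-links the cell wall, fell in 3 copies, with 1031, 668 and 846 against 43 in Bra025889, 527, 351 and 493 against 27 in Bra012274, and 157, 116 and 123 against 14 in Bra015937. A legume-type lectin was lower in 2 copies, most in Bra021101 with 2660, 2353 and 1467 against 38 (-5.84 ± 0.59, edgeR adjusted p = 0.010). These transport, wall and lectin genes were named after their values were seen.

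**Figure D3:**
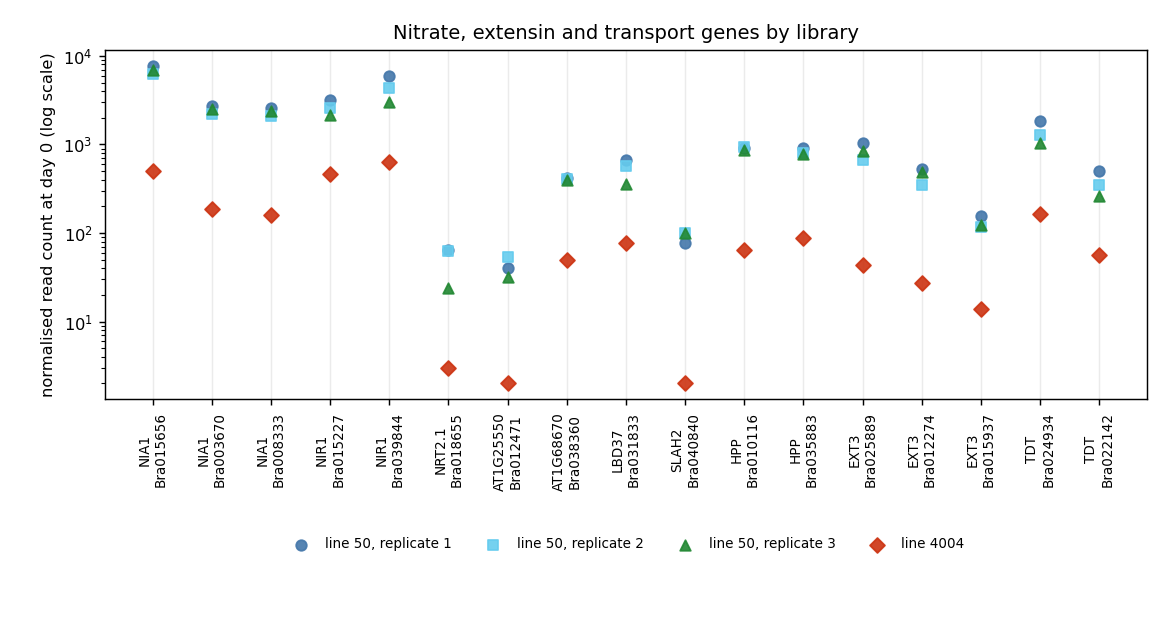
Normalised read counts at day 0 (log scale) of nitrate, extensin (EXT3) and transport genes, including the tonoplast dicarboxylate transporter (TDT), with 1 symbol for each library. The line 4004 diamonds lie below all 3 line 50 symbols in every gene shown, for example at 499 against 6171 to 7727 for NIA1 (Bra015656); NRT2.1 and both NIR1 genes were not called.

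Markers of dividing cells lay lower too, with few calls. Of 16 tested markers of dividing cells 1 was called, the mitotic cyclin CYCB1;1 (Bra011769; 326, 320 and 231 against 51, log2 fold change -2.55 ± 0.40 SE, edgeR adjusted p = 0.036). The list as a whole had a median of -1.23, its summed level was 228 to 259 CPM in line 50 and 140 CPM in line 4004, and 13 of the 16 lay below all 3 line 50 libraries, compared with 22.8% of all genes tested. The SAUR genes, which auxin induces in elongating tissue, had a median of -1.27 over 102 tested members with 1 called higher and 0 lower by edgeR. Of them 42 had an unadjusted p under 0.05, and the replicate block called 15 lower, DESeq2 21 and the fit without replicate 3 of line 50, 52. Other division genes depended on the library: the median of 110 cyclins and CDKs was -0.99, -0.88 and -0.10 against replicates 1, 2 and 3, and that of 66 core histones -0.14, 0.03 and -1.17. In pooled shoots, fewer dividing cells and less RNA per cell cannot be told apart. Shoot meristem markers had 0 of 8 and flower organ markers 0 of 8 called by edgeR, with 0 and 5 at an unadjusted p under 0.05 and 0 and 3 called by DESeq2.

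Disease resistance genes of the NBS-LRR family, intracellular receptors for pathogens, were called in both directions. Of 172 tested, 5 were higher (2.91%) and 3 lower (1.74%), against 1.20% and 0.292% of all genes. Bra030778 had 1, 1 and 2 in line 50 and 290 in line 4004 (7.47 ± 0.50, edgeR adjusted p = 0.0030), and Bra018448 had 2, 4 and 2 against 146 (5.24 ± 0.43, adjusted p = 0.0062). At day 35 Bra030778 had 2, 3 and 2 against 113 and Bra018448 had 4, 5 and 3 against 105. The contrast in both genes was thus present in both sets of libraries. These genes were named after their values were seen.

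Lists for other processes gave few calls. The salicylic acid and PR defence list had 1 of 44 tested genes called higher (2.27% against 1.20% of all genes). It was SAG101 (Bra006274), a partner of the defence regulator EDS1, with 10, 11 and 14 against 127 (3.39 ± 0.44, edgeR adjusted p = 0.021). The other tested SAG101 copies were not called. Bra008731, the most abundant in line 50, lay the opposite way with 214, 231 and 190 against 122 (log2 fold change -0.84). Bra008729 had 11, 7 and 9 against 16 (0.82). The glucosinolate list had 1 of 83 called higher (1.2%, the share of all genes). It was CYP81F4 (Bra010598), which modifies indole glucosinolates, with 1, 8 and 16 against 601 (6.16 ± 1.04, edgeR adjusted p = 0.043). Of 26 cold response genes edgeR called 0, with 7 at an unadjusted p under 0.05, and the replicate block and DESeq2 each called 6 higher. Of 42 phosphate starvation genes edgeR called 0, with 9 at an unadjusted p under 0.05, DESeq2 called 1 higher, and the block called 2 higher and 1 lower.

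Among flowering genes, calls fell on single copies. Of the 27 tested genes at the 12 loci that the study followed, 2 were higher (one CRY2 and one CCA1 gene) and 3 lower (the NIA1 genes), against 1.49% of all genes. The study chose those loci with these samples in view, so their count is not independent evidence. The 4 FLC genes were high in both lines: line 50 had 934, 789 and 1225 against 868 in Bra009055, 1081, 1018 and 1572 against 1976 in Bra028599, 1177, 1164 and 1977 against 2539 in Bra006051, and 213, 214 and 314 against 439 in Bra022771. Line 4004 lay within the line 50 range in the first and above it in the other 3, at edgeR adjusted p of 0.49 to 0.87. The log2 fold changes were -0.25, 0.62, 0.74 and 0.76, and the first was 0.02 with library totals and 0.00 without replicate 3 of line 50.

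The 3 SOC1 genes, floral integrators that FLC represses, were low in both lines but higher in line 4004. They had 6, 4 and 4 against 31 in Bra004928, 4, 4 and 3 against 24 in Bra000393, and 7, 4 and 4 against 37 in Bra039324. None was called in the main fit (edgeR adjusted p = 0.33, 0.31 and 0.27), and all 3 were with the replicate block (0.031, 0.028 and 0.029). The block fit gave SOC1 log2 fold changes of 4.34, 4.38 and 4.45, against 2.43, 2.5 and 2.6 in the main fit. Both the main-fit values and the ratios to single line 50 libraries (2.19 to 2.99) were smaller. The block fit also drew on day 35, where line 50 had 53, 45 and 47 in replicate 3 and 259 to 361 in replicates 1 and 2. The tested FT gene (Bra022475), also chosen after its values were seen, had a normalised read count of 1 or 2 in every day 0 library. AGL42, a MADS-box gene related to SOC1 (Bra029281), had 1, 2 and 2 against 38 (4.01 ± 0.47, adjusted p = 0.016) and was the only called member of 32 tested floral integrators and identity genes; none of the 24 tested floral repressors and none of the 31 vernalization and Polycomb genes was called by edgeR. Of these, 3 repressors and 0 vernalization genes had an unadjusted p under 0.05, DESeq2 called 1 and 0, and the block 1 and 0. The repressor list had medians of 0.73, 0.88 and 0.26 against replicates 1, 2 and 3, so its level turned on replicate 3.

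CRY2, the blue-light receptor of the photoperiod pathway, had one of the tightest differences. Bra015313 had 438, 453 and 463 in line 50 and 2591 in line 4004 (log2 fold change 2.46 ± 0.27 SE, edgeR adjusted p = 0.012), while its other copy Bra030568 had 1319, 1344 and 1129 against 2679 (1.03 ± 0.29; adjusted p = 0.17, and 0.043 with the replicate block). CCA1, a morning component of the clock (Bra004503), had 97, 96 and 116 against 400 (1.90 ± 0.30, adjusted p = 0.037) and was the only call among 46 clock genes. TEM1, a repressor of FT and of gibberellin synthesis (Bra011002), had 759, 831 and 712 against 3343 (2.07 ± 0.41; adjusted p = 0.071, and 0.048 with the block).

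Gibberellin genes had 0 calls by edgeR among 34 tested, with 12 at an unadjusted p under 0.05, but 3 were higher and 4 lower with the replicate block and 5 higher and 3 lower with DESeq2. Among them, 2 of 3 copies of GA2OX2, which inactivates gibberellin, had 53, 30 and 29 against 290 (Bra030187) and 39, 28 and 27 against 259 (Bra032354), at edgeR adjusted p of 0.053 and 0.051 without the block and 0.039 and 0.038 with it. GA20OX3, an enzyme of gibberellin synthesis chosen after its values were seen, had 262, 354 and 178 against 35 in Bra005927, 121, 156 and 96 against 23 in Bra028706, and 192, 183 and 124 against 48 in Bra009285, at adjusted p of 0.064, 0.091 and 0.13 without the block and 0.018, 0.031 and 0.049 with it. For all 5 genes line 4004 lay outside the line 50 range.

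**Figure D4:**
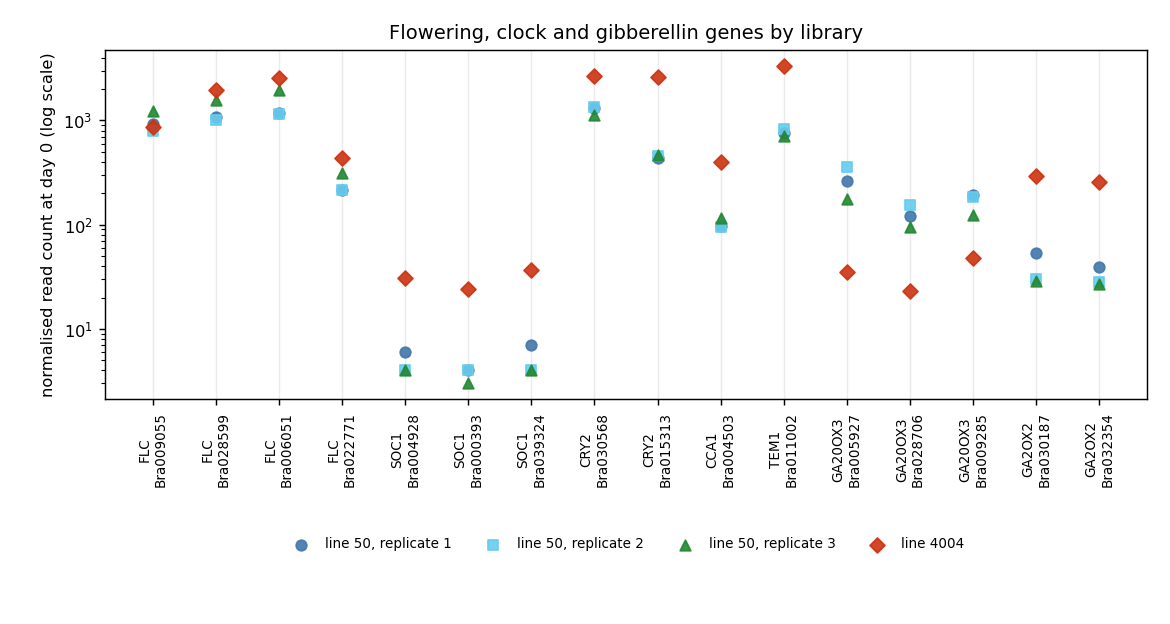
Normalised read counts at day 0 (log scale) of flowering, clock and gibberellin genes, with 1 symbol for each library. The FLC values of the 2 lines lie closer together than their SOC1 values, which are 3 to 7 in line 50 and 24 to 37 in line 4004. Only CRY2 (Bra015313) and CCA1 were called in the main fit.

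The genes called on day 0 were then compared in the day 35 libraries. Those libraries do not enter the day 0 fold changes but share the estimate of spread behind the day 0 calls: the 4 day 0 libraries alone gave 26 genes higher and 6 lower. Line 4004 had 1 library on each day, both numbered 3, so a difference between the lines and one tied to that number cannot be told apart. All 91 genes called lower kept their sign at day 35, 86 by at least 2-fold and 23 past the test, with a median of -2.68. Of all tested genes with a lower value of any size, 78.1% kept their sign. Of the 375 called higher, 319 kept their sign (85.1%, against 69.4% of all), 225 by at least 2-fold and 85 past the test, with a median of 1.53. None was called in the opposite direction. Over all genes, 110 were higher (0.353%) and 29 lower (0.0930%) in line 4004 at day 35.

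The groups differed in what they showed at day 35. Of the 50 genes without reads in line 50 at day 0, 29 had none at day 35 either and 45 were at least 2-fold higher in line 4004. NIP2;1 (Bra005428) had 2, 1 and 2 against 2402 at day 35, the acid phosphatase Bra010332 had 2, 1 and 7 against 3499, and the glycosyltransferase Bra005229 had 6, 5 and 7 against 669. Of the 16 without reads in line 4004, 13 again had none. The desaturase Bra027096, in contrast, was low in both lines at day 35, with 12, 19 and 13 against no reads.

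The 27 called touch and wound regulators had a median log2 fold change of 4.32 at day 0 and 0.33 at day 35, where 17 kept their sign, 3 were at least 2-fold higher and 0 were called by edgeR (1 at an unadjusted p under 0.05, and 0 called by DESeq2). STZ (Bra010922) had 122, 129 and 191 in line 50 and 257 in line 4004 at day 35, WRKY33 (Bra000064) had 918, 880 and 509 against 1007, and RRTF1 had no more than 2 in any library. The 6 nitrate genes kept a median of -2.50, each at least 2-fold lower, with 7154, 6281 and 7311 against 1540 for NIA1 (Bra015656), but 0 passed the edgeR test at day 35, with 6 at an unadjusted p under 0.05 and 6 called by DESeq2. CRY2 (Bra015313) was called again, with 692, 664 and 684 against 2747 (1.93, edgeR adjusted p = 0.045).

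Whether the line difference itself changed between the days was tested as an interaction in the same fit. edgeR called 0 genes, with 956 at an unadjusted p under 0.05 and a smallest adjusted p of 0.95, whereas DESeq2 called 69 and edgeR without replicate 3 of line 50 called 2012. All 27 touch and wound regulators were among the 956, and 3 of the 6 nitrate genes. A smaller fold change at day 35 is thus a description of these libraries and did not pass the test of the difference.

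**Figure D5:**
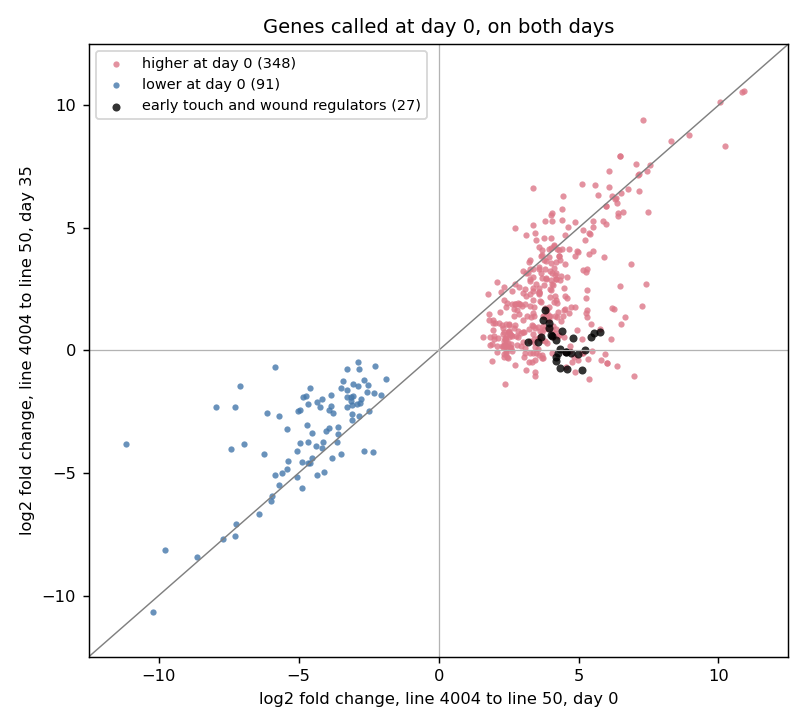
Log2 fold changes of line 4004 to line 50 at day 0 (x axis) and day 35 (y axis) for the 466 genes called at day 0, with the line of equal values. The 27 touch and wound regulators (black) lie between 3.21 and 5.76 at day 0 and between -0.78 and 1.63 at day 35, and all 91 genes called lower lie below 0 on both days.

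Copies of one Arabidopsis locus gave a further view of the calls. Of 8330 loci with 2 to 4 tested copies, 183 had a called copy. In 124 of these 1 copy was called, in 59 at least 2 were, and in 43 every copy was called in the same direction, as in WRKY33, WRKY40 and NIA1. In 30 loci another copy had the opposite sign without being called, and in 1 locus copies were called in both directions. Of the 466 called genes, 321 belonged to none of the lists or families described here.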

How the data were processed

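Reads from 8 pooled shoot libraries (TruSeq, paired-end, HiSeq) were trimmed with SolexaQA and mapped by the authors with Bowtie2 to the Brassica rapa gene set. The deposited raw counts are whole numbers of at least 1 for 38008 genes, used as deposited. The deposited normalised read counts (a score) are whole numbers that the authors scaled with DESeq, and describe levels only. Deposited log2 ratios of group means were not used. The other line 4004 libraries are not analysed here.

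Counts were tested with edgeR 4.0.16 (R 4.3.3; TMM, filterByExpr, quasi-likelihood F test, 8 libraries, 1 coefficient per group, 4 residual degrees of freedom, all from line 50) with Benjamini-Hochberg adjustment over 31191 genes, and the code was tested on simulated data. DESeq2 1.42.0 was an alternative. The study's methods describe the replicates as biologically independent pools of plants. Same-numbered line 50 libraries of the 2 days deviated together (correlations 0.446, 0.615 and 0.695), so the replicate number was taken as a block in an alternative fit. Replicate 1 at day 0 also correlated with replicate 2 at day 35 (0.473).

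Genes were grouped by 22 process lists (438 Arabidopsis loci, 392 matched) and 35 families matched in the annotation. Members and lists were chosen with earlier results of these data known. The genes eligible for naming were the 12 called genes of largest change per direction at a mean of at least 500, up to 3 called genes per list (or the gene of smallest p where none was called), genes the study followed, and copies of these; others are said to be chosen after their values were seen. Poisson intervals and floors (3 counts per library) cover counting error only. Some named genes of the disease resistance family are not reported here.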

Additional observations from a re-analysis of the deposited data

How the results depend on the processing

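The 375 genes called higher, the 91 called lower, the 76 called at the study's expression threshold and the 108 of the 466 called again at day 35 stayed within 1.5 times of these counts with DESeq2 size factors, library totals or no filter on low counts. Library totals moved the median log2 fold change of all genes from -0.035 to 0.186. The other alternatives moved them. In the order higher, lower, expression threshold and day 35, DESeq2 gave 911, 655, 371 and 173, and the replicate block gave 1455, 908 and 646 with 111 at day 35. The 4 day 0 libraries alone gave 26, 6 and 9. With 1 subtracted from every count, 207 were higher and 45 were called again at day 35. A mean of at least 50 in place of 500 gave 283. Leaving out 1 line 50 library of day 0 gave 21 to 511, 2 to 141, 9 to 147 and 28 to 82, leaving out 1 of day 35 gave 117 to 740, 18 to 257, 20 to 227 and 10 to 103, and leaving out both libraries of number 1 or 2 gave 2 to 3, 0 to 0, 2 to 3 and 0 to 8. The lowest counts came without replicate 1 or replicate 2. Without line 50 replicate 3 at both days, an alternative chosen after seeing the data, the counts were 4479, 4233, 1686 and 286. The interaction called 0 genes except with DESeq2 (69) and without line 50 replicate 3 at both days (2012). Why the counts moved was not tested.

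Of 113 named genes followed through the alternatives, 94 were called, and none of these changed sign under any alternative. With the replicate block 94 of them were called, with the 4 day 0 libraries 15, and without replicate 1 or replicate 2 at both days 2. The FLC gene Bra009055 changed sign from -0.25 to 0.02 with library totals and to 0.00 without line 50 replicate 3.

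A single line 4004 library limits every comparison: a gene that varies between line 4004 plants more than between line 50 plants would be called too readily.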

Other observations

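Several smaller gene groups moved together at day 0 and were picked after their values were seen, so their counts are descriptions. All 18 tested genes of nuclear factor Y subunit A, a family of CCAAT-binding transcription factors, lay above the 3 line 50 libraries, and 5 were called higher with a family median of 1.95 (9 with the replicate block). NF-YA10 (Bra009200) had 5, 3 and 3 in line 50 and 150 in line 4004 (log2 fold change 5.16 ± 0.47 SE, edgeR adjusted p = 0.0079). NF-YA2 (Bra001164) had 93, 86 and 111 against 655. The 5 called genes had a median of 1.88 at day 35, where NF-YA10 was called again (9, 6 and 7 against 74).

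A set of 3 copies assigned to AT3G30775, which encodes proline dehydrogenase in Arabidopsis, were higher and stayed so at day 35. Bra020731 had 148, 137 and 121 against 1708 (3.60 ± 0.39, edgeR adjusted p = 0.012), Bra025421 had 141, 129 and 122 against 1189, and Bra036196 had 61, 58 and 65 against 618. Their day 35 log2 fold changes were 2.20 to 2.39, and edgeR called 0 of the 3 there, with 3 at an unadjusted p under 0.05 and 3 called by DESeq2. JAL22, a jacalin-related lectin, had 123, 166 and 350 against 3551 in Bra000129 and 40, 53 and 82 against 770 in Bra005053. In the lower direction, 3 genes of the polyketide cyclase family assigned to AT5G28010 were called, led by Bra016364 with 411, 335 and 250 against 6, and it was called again at day 35 (57, 67 and 67 against 2).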
